A study of Mus musculus with 2 samples.

Results

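Transcripts of 10 inhibitory receptor genes were followed in mouse CD8 T cells by single-cell RNA sequencing: Cd160, Havcr2, Pdcd1, Lag3, Ctla4, Tigit, Cd200, Btla, Cd244a and Entpd1. The genes were chosen by symbol, and all 10 were found among the 32285 genes counted in both libraries. The study asked what the transcription factor NFATc1 does in IL-17-producing CD8 T cells (Tc17 cells). The first library came from C57/B6N mice with floxed Nfatc1 and Cd4-Cre (Nfatc1f/f×Cd4-Cre), in which the Cd4 promoter drives Cre in T cells, and the second from wild-type C57/B6N mice. In both, CD8 T cells were isolated with beads from mesenteric lymph nodes and cultured in RPMI with a Th17 polarizing kit. Both then received PMA at 100 ng/ml and ionomycin at 10 µg/ml for 3 h, so there is no unstimulated group. The labels state neither the age of the mice nor how many were pooled. Each genotype is 1 library, so no test was run: differences between the libraries have no replicate check and cannot be told apart from differences between cultures.

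Inhibitory receptors are surface proteins that lower T cell signalling when they meet a ligand on another cell. Activation through calcium and calcineurin brings NFAT proteins to the nucleus, and many receptors of this kind are induced by that signal. PMA and ionomycin start protein kinase C and calcium signalling directly, bypassing the antigen receptor. Sustained co-expression of several receptors is known from exhausted CD8 T cells, but single receptors also appear on recently activated cells.

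A cell was kept with 500 or more genes and no more than 10% of its UMIs (unique molecular identifiers, 1 per captured RNA molecule) from mitochondrial genes. That left 709 cells with 17898193 UMIs in the deficient-labelled library and 1018 cells with 24452538 UMIs in the wild-type-labelled library. The median was 21436 UMIs per cell in the deficient-labelled library, against 20905 in the wild-type-labelled cells. The libraries shared 0 cell barcodes, and a different multiplexing tag led every barcode of each. Of the kept cells, 99.0% of the deficient-labelled and 99.4% of the wild-type-labelled had at least 3 of the 8 CD8 T cell markers (Cd8a, Cd8b1, Cd3d, Cd3e, Cd3g, Trac, Cd2 and Thy1). Summed B cell markers, mostly Ighm, reached 28.3 CPM (UMIs in 1000000 of the library) in deficient-labelled and 20.1 CPM in wild-type-labelled cells. CD4 T cell, myeloid, dendritic and natural killer lists each summed to under 4 CPM, and Ncr1, Klrb1c and Klrb1b were at 0 in both libraries. The gamma delta T cell gene Trdc had 0.447 CPM in deficient-labelled and 0.0818 CPM in wild-type-labelled cells. Nfatc1 itself went against its label, with 136 CPM in the deficient-labelled library and 39.8 CPM in the wild-type-labelled library. The kit counts tags near the 3′ end of a transcript, which need not come from the deleted exons, so this level does not check the deletion and every direction below rests on the labels.

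Transcripts of Cd160, Havcr2 and Pdcd1 were at least 2-fold higher in the deficient-labelled library, Cd160 by the most, and no member was 2-fold lower. A gene was compared when it reached 20 CPM in 1 library and called when its CPM plus 1 differed at least 2-fold. Of the 10 members 7 reached 20 CPM, 3 were called higher, 0 lower and 4 lay within 2-fold, while 3 stayed below 20 CPM in both libraries. Over all 5584 genes compared, 2.27% were called higher and 2.08% lower. The median log2 ratio was 0.49 over the 7 members compared, 0.54 over all 10 members and 0.03 over all genes compared. Summed over the 10 genes, the receptors held 975 CPM in the deficient-labelled library and 435 CPM in the wild-type-labelled library, and Cd160 made up 61.2% of the deficient-labelled sum and 27.2% of the wild-type-labelled sum. Pdcd1 reached 20 CPM only in the deficient-labelled library, where it was higher, and the members were picked with earlier results of these data known, so the counts describe the list and support nothing more.

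**Figure D1:**
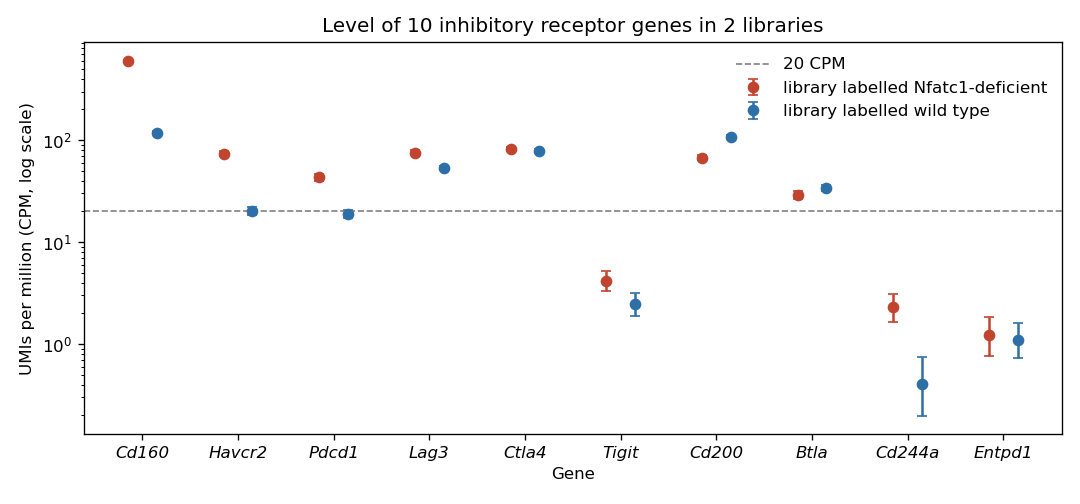
Level of each receptor gene in CPM (log axis) in the library labelled Nfatc1-deficient (red, left) and the library labelled wild type (blue, right). Points are sums over all kept cells, bars are exact 95% Poisson intervals, which cover counting error only, and the dashed line marks 20 CPM. Cd160 stands at 597 CPM in the deficient-labelled library, against 118 CPM in the wild-type-labelled cells, Cd200 is lower in the deficient-labelled library, and Tigit, Cd244a and Entpd1 lie below the line in both.

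Cd160, an immunoglobulin-domain receptor anchored by a lipid that binds HVEM, the product of Tnfrsf14, had the highest CPM of the 10 genes in both libraries. It had 10686 UMIs or 597 CPM in the deficient-labelled library and 2895 UMIs or 118 CPM in the wild-type-labelled library, a ratio of 5.04 (95% interval 4.84 to 5.26). Shares of cells were compared at equal depth, after drawing 5000 UMIs from each cell without replacement (thinning), which 698 deficient-labelled and 1004 wild-type-labelled cells allowed. At that depth 65.5% of cells in the deficient-labelled library (exact binomial interval 61.8 to 69.0) and 28.9% in the wild-type-labelled library (26.1 to 31.8) had a Cd160 UMI, so the intervals lay far apart. Without thinning the shares were 80.0% of deficient-labelled cells, against 54.2% of wild-type-labelled cells. Both the number of positive cells and the amount per positive cell were higher: positive cells held a mean of 4.64 UMIs in the deficient-labelled library, against 2.01 in the wild-type-labelled library, and at least 5 were held by 151 deficient-labelled cells (21.6%) against 22 wild-type-labelled cells (2.19%). Cells with the most UMIs held 44 in the deficient-labelled library and 15 in the wild-type-labelled library. Positive cells made up most of the deficient-labelled library, and the 10% of cells with the most Cd160 held 48.4% of its UMIs there and 57.4% in the wild-type-labelled library.

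The Cd160 gene lies on chr3:96798763-96829351 of mm10 on the minus strand and overlaps Pdzk1 on the plus strand. Pdzk1 had 1.40 CPM in deficient-labelled and 1.27 CPM in wild-type-labelled cells, far below Cd160 in either library. RefSeq (GRCm38.p6) lists 2 starts for Cd160, and the 250 bases before each are shown with those of Havcr2 and Pdcd1, the other genes called higher. Capitals mark GGAAA, the core of the sequence that NFAT proteins bind, or TTTCC, the same letters on the other strand, with all sequences written 5′ to 3′ along the gene.
Cd160 start 1, chr3:96829352-96829601, minus strand: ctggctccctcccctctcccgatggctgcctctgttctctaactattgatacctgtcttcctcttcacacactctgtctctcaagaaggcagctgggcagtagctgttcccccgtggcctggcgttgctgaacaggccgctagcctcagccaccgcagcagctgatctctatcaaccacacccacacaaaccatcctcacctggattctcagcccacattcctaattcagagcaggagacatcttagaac
Cd160 start 2, chr3:96814522-96814771, minus strand: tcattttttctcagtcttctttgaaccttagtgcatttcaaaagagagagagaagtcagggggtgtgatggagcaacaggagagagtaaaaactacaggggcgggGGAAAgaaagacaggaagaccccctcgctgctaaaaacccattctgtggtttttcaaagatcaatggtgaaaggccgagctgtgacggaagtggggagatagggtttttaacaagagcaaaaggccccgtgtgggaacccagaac
Havcr2, chr11:46454681-46454930, plus strand: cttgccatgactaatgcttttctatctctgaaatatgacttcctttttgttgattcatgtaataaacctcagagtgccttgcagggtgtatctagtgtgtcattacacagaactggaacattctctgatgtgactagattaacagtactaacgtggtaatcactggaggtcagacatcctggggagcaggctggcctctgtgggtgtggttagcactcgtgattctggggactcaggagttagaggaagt
Pdcd1, chr1:94052554-94052803, minus strand: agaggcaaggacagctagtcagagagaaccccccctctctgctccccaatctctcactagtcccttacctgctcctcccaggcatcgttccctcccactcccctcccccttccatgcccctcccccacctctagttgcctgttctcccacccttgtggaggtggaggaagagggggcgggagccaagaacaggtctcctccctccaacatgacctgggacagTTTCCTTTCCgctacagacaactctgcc

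The motif was present 1 time before the second Cd160 start and 2 times side by side before Pdcd1, and these letters were not in the windows of the first Cd160 start or Havcr2. Of the 10 members 9 matched the RefSeq promoter table, with 11 starts in all, and 6 of the 11 windows held the motif. Of all 32851 promoter windows of this length, 55.6% held it at least once and 21.4% at least 2 times, so its presence does not set the receptors apart. Tags near the 3′ end do not tell which Cd160 start was used.

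Havcr2, which encodes TIM-3, a receptor for galectin-9, CEACAM1, HMGB1 and phosphatidylserine, was the second member called higher. It had 1323 UMIs or 73.9 CPM in the deficient-labelled library and 492 UMIs or 20.1 CPM in the wild-type-labelled library, a ratio of 3.67 (3.31 to 4.08). At 5000 UMIs per cell 16.6% (13.9 to 19.6) of deficient-labelled cells, against 6.87% (5.39 to 8.62) of wild-type-labelled cells had a Havcr2 UMI. Without thinning the shares were 38.2% of deficient-labelled cells, against 19.4% of wild-type-labelled cells. Havcr2 was a minority transcript in both libraries, and more concentrated than Cd160: the top 10% of cells held 65.7% of its UMIs in the deficient-labelled library and 80.5% in the wild-type-labelled library. The gene lies on chr11:46454935-46481255 on the plus strand, with no overlapping gene in the annotation.

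Pdcd1, which encodes PD-1, the receptor of PD-L1 and PD-L2 that recruits the phosphatase SHP-2, had 773 UMIs or 43.2 CPM in the deficient-labelled library and 461 UMIs or 18.9 CPM in the wild-type-labelled library. The ratio was 2.29 (2.04 to 2.58), close above the 2-fold line. At 5000 UMIs 18.5% (15.7 to 21.6) of deficient-labelled cells, against 6.57% (5.12 to 8.29) of wild-type-labelled cells had it, so the intervals did not overlap. Without thinning the shares were 50.2% of deficient-labelled cells, against 23.2% of wild-type-labelled cells. The gene lies on chr1:94038305-94052553 on the minus strand.

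Lag3 and Ctla4 differed by less than 2-fold between the libraries, and Tigit lay below 20 CPM in both. Lag3, a CD4-like receptor for MHC class II and FGL1, had 1350 UMIs or 75.4 CPM in the deficient-labelled library and 1303 UMIs or 53.3 CPM in the wild-type-labelled library, a ratio of 1.42 (1.31 to 1.53). The shares of cells with Lag3 overlapped, at 24.2% (21.1 to 27.6) of deficient-labelled cells, against 22.9% (20.3 to 25.6) of wild-type-labelled cells. Ctla4, which competes with CD28 for CD80 and CD86, had 1465 UMIs or 81.9 CPM in the deficient-labelled library and 1908 UMIs or 78.0 CPM in the wild-type-labelled library, a ratio of 1.05 (0.979 to 1.12). Its shares overlapped too, at 19.6% of deficient-labelled cells, against 17.5% of wild-type-labelled cells. Tigit, a receptor for PVR and nectin-2, was scarce, with 75 UMIs or 4.19 CPM in the deficient-labelled library and 60 UMIs or 2.45 CPM in the wild-type-labelled library. At 5000 UMIs 1.43% of deficient-labelled cells, against 1.30% of wild-type-labelled cells were positive. At this depth a difference in Tigit-positive cells was not detectable.

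Cd200 and Btla went the other way from Cd160. Cd200 encodes the ligand of the inhibitory receptor CD200R rather than a receptor with a signalling tail of its own. It had 1204 UMIs or 67.3 CPM in the deficient-labelled library and 2635 UMIs or 108 CPM in the wild-type-labelled library, 1.60-fold lower (1.50 to 1.72), which is short of the 2-fold line. Its shares lay apart, at 21.1% (18.1 to 24.3) of deficient-labelled cells, against 34.6% (31.6 to 37.6) of wild-type-labelled cells. Without thinning they were 42.2% of deficient-labelled cells, against 64.1% of wild-type-labelled cells. Btla, a receptor that shares the ligand HVEM with CD160, had 519 UMIs or 29.0 CPM in the deficient-labelled library and 838 UMIs or 34.3 CPM in the wild-type-labelled library, 1.18-fold lower (1.06 to 1.32). The shares of Btla-positive cells overlapped narrowly, at 11.7% (9.45 to 14.4) in the deficient-labelled library and 16.3% (14.1 to 18.8) in the wild-type-labelled library. So of the members that bind HVEM, Cd160 was called higher and Btla was not called. Btla and Cd200 lie near each other on chromosome 16, at chr16:45224315-45257670 and chr16:45382135-45409053.

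The remaining members were rarely captured. Cd244a, which encodes 2B4, a receptor for CD48, had 41 UMIs or 2.29 CPM in the deficient-labelled library and 10 UMIs or 0.409 CPM in the wild-type-labelled library. The ratio was 5.60 (2.76 to 12.5), on counts too small for the 20 CPM rule, and Cd244a overlaps Ly9 on the other strand, which had 7.60 CPM in deficient-labelled and 9.20 CPM in wild-type-labelled cells. After thinning 4 of 698 deficient-labelled cells, against 0 of 1004 wild-type-labelled cells had a Cd244a UMI. A count of 0 allows up to 0.367% of cells with a UMI at that depth (exact binomial). Without thinning the shares were 4.09% of deficient-labelled cells, against 0.884% of wild-type-labelled cells. Entpd1, which encodes CD39, an enzyme that breaks down extracellular ATP, had 22 UMIs or 1.23 CPM in the deficient-labelled library and 27 UMIs or 1.10 CPM in the wild-type-labelled library, a ratio of 1.11 (0.604 to 2.03). The kit counts tags near the transcript end, but whether tags from introns were also counted is not given. A part of gene length in the counts was not tested. How well each gene was captured was not measured, so the order below ranks CPM and not RNA molecules in the cell. The order, from high to low, was Cd160, Ctla4, Lag3, Havcr2, Cd200, Pdcd1 and Btla in the deficient-labelled library, and Cd160, Cd200, Ctla4, Lag3, Btla, Havcr2 and Pdcd1 in the wild-type-labelled library. Counting intervals of neighbours overlapped from Ctla4 down to Cd200 in the deficient-labelled library, and for Havcr2 and Pdcd1 in the wild-type-labelled library.

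**Figure D2:**
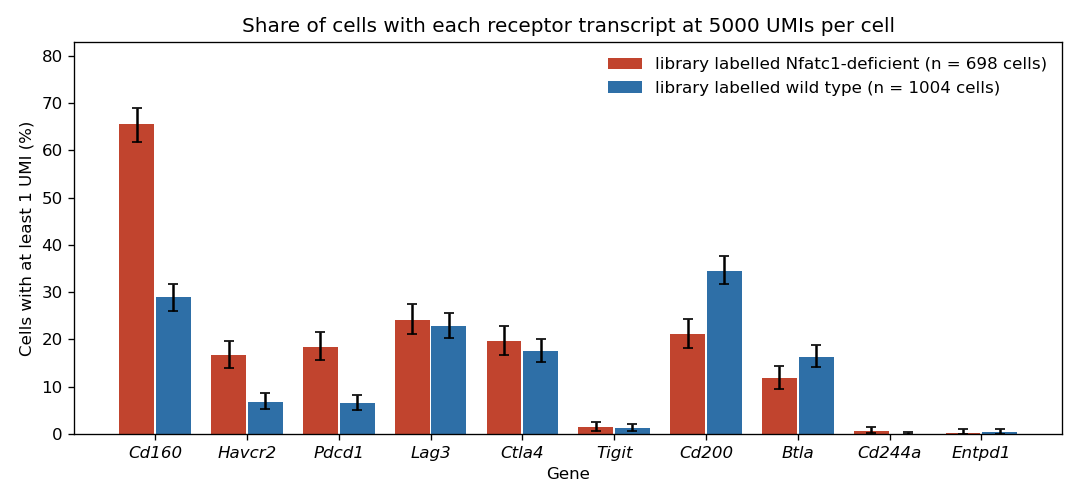
Percent of cells with at least 1 UMI of each receptor gene after thinning every cell to 5000 UMIs, in the library labelled Nfatc1-deficient (red, left, 698 cells) and the library labelled wild type (blue, right, 1004 cells). Bars carry exact 95% binomial intervals. The intervals lie apart for Cd160, Havcr2 and Pdcd1, higher in the deficient-labelled library, and for Cd200, lower there.

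Free RNA in the droplets can add UMIs to cells that do not express a gene, and neither library held a cell type that should lack these receptors, so the background under the shares could not be measured. The shares compared here are at 1 depth in both libraries.

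More receptor transcripts were found per cell in the deficient-labelled library, and most of the net excess in CPM was Cd160. At 5000 UMIs, 88.4% of cells (85.8 to 90.7) in the deficient-labelled library and 75.7% (72.9 to 78.3) in the wild-type-labelled library had at least 1 of the 10 transcripts. At least 2 were found in 57.6% (53.8 to 61.3) of deficient-labelled cells, against 40.6% (37.6 to 43.8) of wild-type-labelled cells, and at least 3 in 24.4% (21.2 to 27.7) of deficient-labelled cells, against 14.9% (12.8 to 17.3) of wild-type-labelled cells. Cells with 5 receptors, the highest number found, numbered 10 deficient-labelled and 4 wild-type-labelled. When Cd160 was left out of the count, the libraries lay within their counting error: at least 1 of the other receptors was found in 70.5% of deficient-labelled cells, against 67.9% of wild-type-labelled cells, and at least 2 in 32.7% (29.2 to 36.3) of deficient-labelled cells, against 29.7% (26.9 to 32.6) of wild-type-labelled cells. This count pools members that went opposite ways, with Havcr2 and Pdcd1 in more and Cd200 in fewer cells of the deficient-labelled library. The numbers depend on depth, since at all UMIs 89.1% of deficient-labelled cells, against 81.8% of wild-type-labelled cells had at least 2 receptors.

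**Figure D3:**
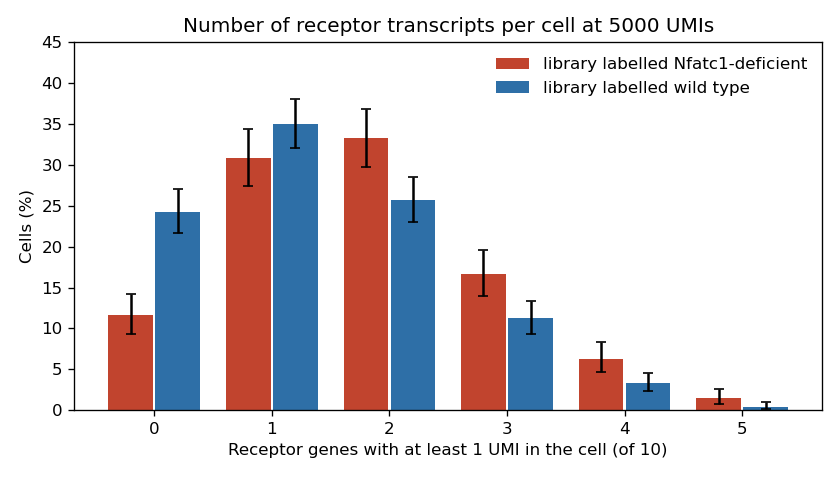
Percent of cells by the number of the 10 receptor genes with at least 1 UMI, at 5000 UMIs per cell, in the library labelled Nfatc1-deficient (red, left) and the library labelled wild type (blue, right), with exact 95% binomial intervals. Cells with 0 receptors made up 11.6% of the deficient-labelled cells, against 24.3% of the wild-type-labelled cells, and the bars of the deficient-labelled library are higher from 2 receptors on.

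Within each library, receptor pairs were on median found together about as often as their single shares predict, with single pairs on either side. For each pair, the number of cells with both was divided by the product of the single shares times the number of cells, and pairs with a product of at least 5 cells were used. That gave 22 pairs in the deficient-labelled library and 20 in the wild-type-labelled library. The median ratio was 1.03 over the deficient-labelled and 1.08 over the wild-type-labelled pairs. Single ratios ran from 0.736 to 1.39 in the deficient-labelled and from 0.855 to 1.36 in the wild-type-labelled library. Cd160 and Havcr2 were found together in 78 cells, against 76.0 from the single shares, in the deficient-labelled library, a ratio of 1.03 (0.821 to 1.26). In the wild-type-labelled library 22 cells had both, against 19.9 from the shares, a ratio of 1.10 (0.694 to 1.66). Cd160 with Pdcd1 gave 1.17 (0.965 to 1.40) in deficient-labelled and 1.36 (0.895 to 1.99) in wild-type-labelled cells, and Cd160 with Lag3 gave 1.12 in deficient-labelled and 1.22 in wild-type-labelled cells. Each of these ratios was above 1. Their intervals cover only the count of cells with both and take the single shares as fixed, which leaves them wide. An interval that holds 1 therefore does not show that a pair is independent. None of these intervals excluded a ratio of 1. The exact intervals excluded it for 0 pairs in the deficient-labelled library and 1 pair in the wild-type-labelled library, Cd200 with Btla, at 73 cells against 56.7 from the shares, a ratio of 1.29 (1.02 to 1.60). The same pair had 24 cells against 17.3, a ratio of 1.39 (0.895 to 2.05), in the deficient-labelled library. Over the pairs used, Spearman's rho between receptors over cells ran from -0.06 to 0.15 over 698 deficient-labelled cells and from -0.06 to 0.10 over 1004 wild-type-labelled cells, all weak in sparse counts. The highest in the deficient-labelled library was Cd160 with Pdcd1, at 0.15, and this pair had 0.07 in the wild-type-labelled library. Among the pairs left out for a product under 5 cells, Havcr2 with Cd244a had 4 cells against 0.665 from the shares in the deficient-labelled library, a ratio of 6.02 (1.64 to 15.3) with rho 0.16. Havcr2 with Tigit had 5 cells against 0.893 in the wild-type-labelled library, a ratio of 5.60 (1.82 to 13.02) with rho 0.15. Btla with Entpd1 had 2 cells against 0.235 in the deficient-labelled library, a ratio of 8.51 (1.03 to 30.6) with rho 0.15.

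**Figure D4:**
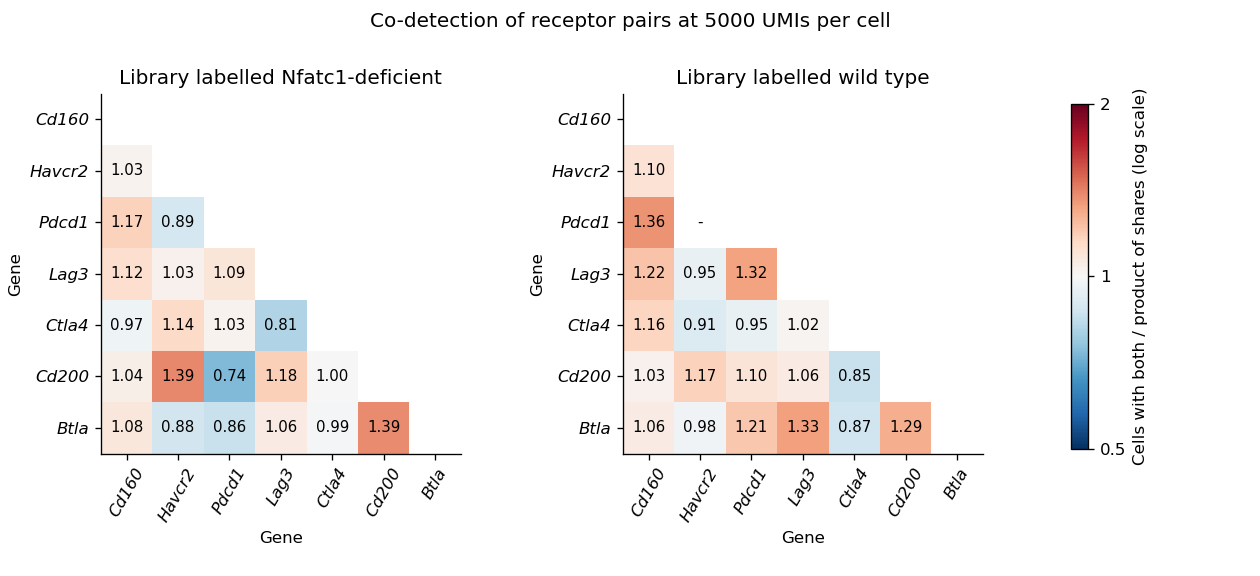
Cells with both genes of a pair divided by the number the single shares predict, for the 7 receptor genes above 20 CPM, at 5000 UMIs per cell, in the library labelled Nfatc1-deficient (left) and the library labelled wild type (right). Colour is on a log scale centred at 1, and a dash marks the pair under 5 predicted cells. Ratios run from 0.736 to 1.39 on the left and from 0.855 to 1.36 on the right.

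The receptors were then read against the cytokines of the same cells, which differed between the libraries. Ifng, the type 1 cytokine interferon gamma, had 7368 CPM in the deficient-labelled library and 1319 CPM in the wild-type-labelled library, and Il17a, the defining cytokine of Tc17 cells, had 3572 CPM in deficient-labelled and 11090 CPM in wild-type-labelled cells. Cells were sorted into 4 states by at least 5 UMIs of Ifng or Il17a per 5000. In the deficient-labelled library 269 cells had Ifng without Il17a, 35 had both, 134 had Il17a without Ifng and 260 had neither. The numbers were 47, 47, 581 and 329 in the wild-type-labelled library, so the Ifng groups are small there.

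Cd160 was found in more cells of the deficient-labelled library in all 4 states, with intervals that lay apart each time. In the deficient-labelled library the shares were 71.0% of cells with Ifng only, 85.7% with both cytokines, 64.9% with Il17a only and 57.3% with neither. The same states had 31.9%, 51.1%, 32.4% and 19.1% in the wild-type-labelled library. In both libraries the highest share was that of cells with both cytokines and the lowest that of cells with neither. Cells with both numbered 35 deficient-labelled and 47 wild-type-labelled, and their interval overlapped that of the next state in each library. In CPM over all UMIs, Cd160 had 470.6, 997.3, 752.8 and 572.8 in these states of the deficient-labelled library, lowest with Ifng only. The wild-type-labelled library had 120.5, 202.1, 127.5 and 76.9 CPM.

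Havcr2 was found in the largest shares of cells in the 2 states with Ifng, in both libraries. A Havcr2 UMI was found in the deficient-labelled library in 27.5% of cells with Ifng only, 25.7% with both cytokines, 8.96% with Il17a only and 8.08% with neither. These states had 14.9%, 17.0%, 7.57% and 3.04% in the wild-type-labelled library. The share was higher in the deficient-labelled library in each state, but the intervals overlapped in all 4. In CPM over all UMIs, Havcr2 had 112.5, 98.4, 31.4 and 42.2 in these states of the deficient-labelled library. The wild-type-labelled library had 55.4, 47.6, 18.7 and 11.6 CPM, and these counting intervals lay apart in all 4 states. Between libraries the Havcr2 log2 ratio was 1.105 in cells with at least 5 Ifng UMIs and 1.151 in cells with fewer. With each cell of the deficient-labelled library weighted so that the 4 states had the proportions of the wild-type-labelled library, an alternative chosen after the data had been seen, Havcr2 stood at 30.7 CPM in deficient-labelled against 18.7 CPM in wild-type-labelled cells. That is a log2 ratio of 0.68, under 2-fold, against 1.43 for the same thinned cells without weights. The weighting used thinned counts, in which Havcr2 was sparse. In cells with Il17a only, its mean was 0.119 UMIs in deficient-labelled and 0.0998 in wild-type-labelled cells. The CPM over all UMIs were not weighted, so whether Havcr2 stays under 2-fold at full depth was not tested. The same weighting left Cd160 at 763 CPM in deficient-labelled and 116 CPM in wild-type-labelled cells, a log2 ratio of 2.71. It left Pdcd1 at 52.3 CPM in deficient-labelled and 14.9 CPM in wild-type-labelled cells, a log2 ratio of 1.74.

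Pdcd1 was found in a larger share of deficient-labelled cells in all 4 states. Its shares lay apart in cells with Il17a only, at 24.6% in the deficient-labelled library and 7.23% in the wild-type-labelled one, and in cells with neither, at 16.9% of deficient-labelled cells, against 4.26% of wild-type-labelled cells. They overlapped in cells with Ifng only, at 16.4% of deficient-labelled cells, against 12.8% of wild-type-labelled cells, and in cells with both, at 22.9% of deficient-labelled cells, against 8.51% of wild-type-labelled cells. In cells with at least 5 Ifng UMIs, Pdcd1 had 37.4 CPM in the deficient-labelled library and 32.0 CPM in the wild-type-labelled one, a log2 ratio of 0.22, so the 2-fold call was not met there. Whether the gap between libraries differs among states was not tested.

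Cd200 was lower in the deficient-labelled library in all 4 states, with intervals apart in 2 of them. With Il17a only, 20.9% of deficient-labelled cells, against 37.5% of wild-type-labelled cells had a Cd200 UMI, and with neither cytokine 18.5% of deficient-labelled cells, against 31.0% of wild-type-labelled cells. In the small Ifng groups the intervals overlapped, at 23.8% of deficient-labelled cells, against 29.8% of wild-type-labelled cells with Ifng only, and at 7 of 35 deficient-labelled cells, against 13 of 47 wild-type-labelled cells with both. At least 2 of the 10 receptors were found in 61.3% of deficient-labelled cells, against 55.3% of wild-type-labelled cells with Ifng only. With neither cytokine they were found in 52.3% of deficient-labelled cells, against 34.0% of wild-type-labelled cells.

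**Figure D5:**
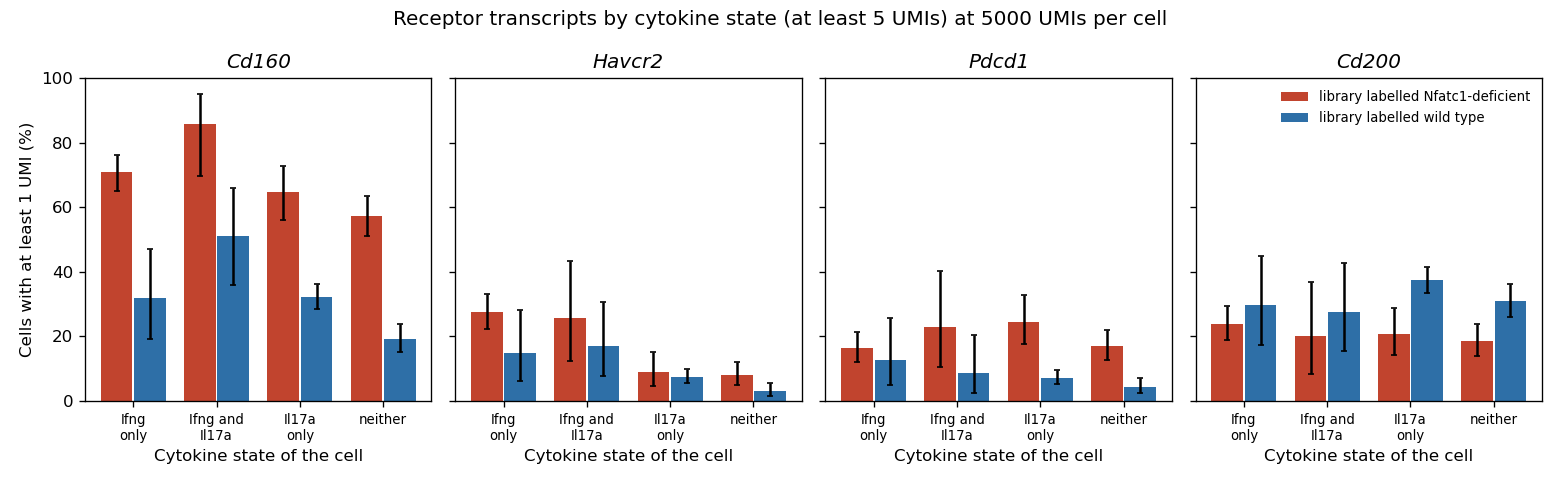
Percent of cells with at least 1 UMI of Cd160, Havcr2, Pdcd1 and Cd200 in 4 cytokine states, set by at least 5 UMIs of Ifng or Il17a, at 5000 UMIs per cell, in the library labelled Nfatc1-deficient (red, left) and the library labelled wild type (blue, right), with exact 95% binomial intervals. Cd160 lies apart in every state, and Havcr2 is highest in the states with Ifng in both libraries.

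Cells with at least 5 Ifng UMIs were then set against cells with none, within each library. Of the 7 members compared, Havcr2 was called higher with Ifng in both libraries. In the deficient-labelled library it had 110 CPM in 304 cells with Ifng and 28.0 CPM in 302 cells without, a ratio of 3.94 (3.37 to 4.64). In the wild-type-labelled library it had 50.7 CPM in 94 cells with Ifng and 16.5 CPM in 742 cells without, a ratio of 3.07 (2.48 to 3.79). Havcr2 thus reached 20 CPM there only in the cells with Ifng. Deficient-labelled cells had 77.2 CPM of Ctla4 with Ifng and 80.2 CPM without, a ratio of 0.963. Ctla4 had 153 CPM with Ifng and 71.0 CPM without in the wild-type-labelled library, a ratio of 2.16 (1.92 to 2.42). The wild-type-labelled Ctla4 ratio fell short of 2-fold with an Ifng cutoff of 2 UMIs, at a log2 ratio of 0.76, and with cells thinned to 10000 UMIs, at 0.82.

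By the 2-fold rule 1 of 7 members was higher and 0 lower in cells with Ifng of the deficient-labelled library, where 0.606% of all genes were higher and 3.05% lower. In the wild-type-labelled library 2 of 7 were higher and 0 lower, where 1.45% of all genes were higher and 0.827% lower. Havcr2 and Pdcd1 entered this comparison of the wild-type-labelled library only through the cells with Ifng, where they were higher. The counts therefore describe the members and support nothing more. Below 20 CPM, Tigit had 6.18 CPM with Ifng and 2.39 CPM without in the deficient-labelled library, a ratio of 2.58 (1.46 to 4.83), and 5.85 CPM with and 2.08 CPM without in the wild-type-labelled library, a ratio of 2.82 (1.44 to 5.26). Cd244a had 31 UMIs with Ifng and 6 without in the deficient-labelled library, a ratio of 3.88 (1.60 to 11.4), and 5 with and 5 without in the wild-type-labelled library, a ratio of 6.95 (1.60 to 30.2). Both were thus also higher with Ifng in each library, on few UMIs. Cells with Ifng held more RNA, with medians of 24341 UMIs against 19348 in cells without in the deficient-labelled library, and 24624 against 20644 in the wild-type-labelled library. The median log2 ratio of all genes was -0.20 in the deficient-labelled library, against -0.11 in the wild-type-labelled split. Cycling cells, with at least 3 UMIs of 10 cell cycle genes, made up 5.26% of cells with Ifng and 5.30% of cells without in the deficient-labelled library, and 6.38% and 9.03% of these groups in the wild-type-labelled library. The part of depth in the Havcr2 ratio was not tested. Without cycling cells the Havcr2 log2 ratio of the wild-type-labelled library was 1.06, against 1.56 with them.

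Cells with at least 5 Il17a UMIs, set against cells with none, showed 0 of 7 members past 2-fold in either direction in both libraries. In the deficient-labelled library 3.02% of all genes were higher and 0.48% lower in the 169 cells with Il17a against the 317 without. In the wild-type-labelled library 0.476% were higher and 0.33% lower in the 628 cells with Il17a against the 213 without. Cd160 was moderately higher with Il17a in both libraries. It had 822 CPM with Il17a and 492 CPM without in the deficient-labelled library, a ratio of 1.67 (1.60 to 1.75). Wild-type-labelled cells had 134 CPM with and 81.2 CPM without, a ratio of 1.65 (1.48 to 1.85). Ctla4 was 1.39 times as high with Il17a in the deficient-labelled library, against 1.49 times as high in the wild-type-labelled library. Havcr2 had 50.4 CPM with Il17a and 83.3 CPM without in the deficient-labelled library, and 21.4 CPM with and 19.2 CPM without in the wild-type-labelled library.

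Cytokines were also compared between cells with and without each receptor, for 7 receptors and 9 genes, 63 pairs in all. The intervals of the shares lay apart for 12 pairs in the deficient-labelled library and 16 in the wild-type-labelled library. In 9 of them they lay apart in both libraries and in the same direction, 7 with the cytokine more frequent and 2 less frequent in receptor-positive cells. These 9 pairs fell on Havcr2, Cd160 and Ctla4, with Ccl3 in the pairs of both Havcr2 and Cd160, and Il2 in those of both Cd160 and Ctla4. How often other genes found in like shares of cells would lie apart was not computed. The counts therefore describe these pairs and do not set the receptors apart from other genes.

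Havcr2-positive cells more often had the effector genes Ifng, Gzmb, Il10 and Ccl3. Of them 71.6% had at least 5 Ifng UMIs, against 38.0% of Havcr2-negative cells, in the deficient-labelled library, and 21.7% against 8.45% in the wild-type-labelled library. Gzmb, the cytotoxic protease granzyme B, was found in 40.5% against 13.2% of deficient-labelled and in 17.4% against 3.96% of wild-type-labelled cells. Il10, an anti-inflammatory cytokine, was found in 28.4% against 8.94% of deficient-labelled and in 21.7% against 4.60% of wild-type-labelled cells. The chemokine Ccl3 reached 5 UMIs in 83.6% against 54.0% of deficient-labelled and in 29.0% against 15.9% of wild-type-labelled cells. Il17f went the other way in the deficient-labelled library, at 27.6% against 41.9%, and its shares overlapped in the wild-type-labelled library, at 78.3% against 73.3%.

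Cd160-positive cells more often had Xcl1, Il2 and Ccl3. The chemokine Xcl1, which draws cross-presenting dendritic cells, reached 5 UMIs in 89.7% of Cd160-positive against 65.6% of Cd160-negative cells in the deficient-labelled library, and in 56.2% against 26.9% in the wild-type-labelled library. Il2, the T cell growth factor, did so in 82.9% against 61.0% of deficient-labelled and in 66.9% against 55.5% of wild-type-labelled cells. Ccl3 did so in 64.8% against 47.7% of deficient-labelled and in 28.3% against 12.2% of wild-type-labelled cells. The intervals overlapped for Gzmb, found in 16.6% of Cd160-positive against 19.9% of Cd160-negative deficient-labelled cells and in 4.83% against 4.90% of wild-type-labelled cells. Of the genes with intervals apart in both libraries, Ccl3 was common to Cd160 and Havcr2.

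Ctla4-positive cells less often had Il2 and Tnf. Il2 reached 5 UMIs in 62.0% of Ctla4-positive against 78.6% of Ctla4-negative cells in the deficient-labelled library, and in 46.6% against 61.4% in the wild-type-labelled library. Tnf, an inflammatory cytokine, was found in 59.1% against 74.0% of deficient-labelled and in 58.0% against 71.5% of wild-type-labelled cells. For Pdcd1, Lag3 and Cd200, intervals lay apart in the wild-type-labelled library and overlapped in the other: Xcl1 with Pdcd1, at 63.6% against 33.4%, Ccl3 with Pdcd1, at 31.8% against 15.8%, Xcl1 with Lag3, at 47.4% against 31.8%, and Il2 with Cd200, at 67.2% against 54.3%. Whether these differ from the deficient-labelled library was not tested. Btla had no pair with intervals apart in either library.

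Across cells, Spearman's rho between the 7 receptors and 12 cytokine and effector genes ran from -0.14 to 0.30 over 698 deficient-labelled cells and from -0.13 to 0.27 over 1004 wild-type-labelled cells. Of 84 values in each library, 6 reached 0.2 in size in the deficient-labelled library, against 3 in the wild-type-labelled library. Cells of 1 library share its culture and its depth, so these are descriptions only. Among 4624 genes found in at least 10% of cells of both libraries, those most like Cd160 by the smaller of their 2 values were Xcl1, Crtam, Gch1, Nr4a3 and Slamf7. In the deficient-labelled library their rho was 0.27, 0.33, 0.31, 0.22 and 0.23, and in the wild-type-labelled library 0.27, 0.23, 0.22, 0.22 and 0.20. Those most like Havcr2 among 4625 genes were Ttc39c, Tnfrsf9, S100a6, Zbtb32 and Slco3a1, with rho of 0.12 to 0.28 in the deficient-labelled library, against 0.12 to 0.14 in the wild-type-labelled library. In sparse counts values this weak single out no gene.

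Ligands of the receptors were also made by these cells in part. Of 15 listed ligands and counter-receptors 5 reached 20 CPM, and 1 was called higher and 0 lower in the deficient-labelled library. Over all genes compared 2.27% were higher and 2.08% lower. The list was chosen with earlier results of these data known, so the counts describe it only. Lgals3, a galectin that binds LAG-3, was called, at 460 CPM in deficient-labelled and 209 CPM in wild-type-labelled cells, a ratio of 2.20. Cd48, the ligand of 2B4, had 117 CPM in deficient-labelled and 68.4 CPM in wild-type-labelled cells, Cd274, which encodes PD-L1, 128 CPM in deficient-labelled and 90.8 CPM in wild-type-labelled cells, and Pdcd1lg2, which encodes PD-L2, 22.8 CPM in deficient-labelled and 17.2 CPM in wild-type-labelled cells. Hmgb1 had 499.7 CPM in deficient-labelled and 440.2 CPM in wild-type-labelled cells. The median log2 ratio of the 5 was 0.49, against 0.03 over all genes. Pdcd1lg2 reached 20 CPM only in the deficient-labelled library, and the listed genes below 20 CPM, left out of this median, went either way. The HVEM gene Tnfrsf14, the ligand of CD160 and BTLA, had 1.06 CPM in deficient-labelled and 1.02 CPM in wild-type-labelled cells, below the floor.

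Of 18 adapters and enzymes that act with inhibitory receptors or in T cell signalling, 16 reached 20 CPM, and 0 were called higher and 1 lower in the deficient-labelled library. Over all genes compared 2.27% were higher and 2.08% lower, and the counts of this list and the next only describe them. Sh2d1a, which encodes the adapter SAP of the 2B4 family, had 27.3 CPM in deficient-labelled and 63.1 CPM in wild-type-labelled cells, 2.31-fold lower. The kinase gene Fyn had 711 CPM in deficient-labelled and 418 CPM in wild-type-labelled cells and the diacylglycerol kinase gene Dgkz 41.9 CPM in deficient-labelled and 25.1 CPM in wild-type-labelled cells, while Inpp5d, which encodes the phosphatase SHIP-1, had 16.0 CPM in deficient-labelled and 23.9 CPM in wild-type-labelled cells. The SHP-2 gene Ptpn11 had 38.8 CPM in deficient-labelled and 37.3 CPM in wild-type-labelled cells. The median log2 ratio of the list was 0.02. Of 18 other inhibitory receptor symbols 17 matched, 9 reached 20 CPM and 0 were called in either direction (median 0.12). Lilrb4a had 84.8 CPM in deficient-labelled and 47.1 CPM in wild-type-labelled cells and Vsir, which encodes VISTA, 123 CPM in deficient-labelled and 95.5 CPM in wild-type-labelled cells, while Pecam1 had 13.4 CPM in deficient-labelled and 22.0 CPM in wild-type-labelled cells and Cd72 20.6 CPM in deficient-labelled and 36.6 CPM in wild-type-labelled cells.

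Transcription factors linked to exhaustion were called in both directions. Of 19 listed 14 reached 20 CPM, and in the deficient-labelled library 5 were higher and 2 lower, where 2.27% of all genes compared were higher and 2.08% lower. The list was chosen with earlier results of these data known, so these counts describe it only. The median log2 ratio was 0.16. Besides Nfatc1, the nuclear receptors Nr4a3, at 231 CPM in deficient-labelled and 66.6 CPM in wild-type-labelled cells, and Nr4a2, at 73.9 CPM in deficient-labelled and 30.7 CPM in wild-type-labelled cells, were higher. Egr2 was higher at 71.9 CPM in deficient-labelled and 26.6 CPM in wild-type-labelled cells, and Tox, a factor required for exhausted cells to persist, at 23.2 CPM in deficient-labelled and 8.59 CPM in wild-type-labelled cells. Id3, known from memory precursor cells, was lower at 43.4 CPM in deficient-labelled and 134 CPM in wild-type-labelled cells, and Nfatc2, which encodes another NFAT protein, at 6.48 CPM in deficient-labelled and 24.7 CPM in wild-type-labelled cells. Tox reached 20 CPM only in the deficient-labelled library and Nfatc2 only in the wild-type-labelled library.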

How the data were processed

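The deposited files hold raw UMI counts for every gene in every cell barcode of a library; their headers name Cell Ranger 7.0.0, and the submitters' processing notes name mm10. Intron counting and annotation: not given in the sources used here. Counts of the kept cells were summed per library and scaled to CPM without the multiplexing tags. Intervals are 95%, exact Poisson for sums, conditional binomial for ratios of CPM and Clopper-Pearson for shares. For pair ratios, the Clopper-Pearson interval of the share with both was divided by the product of the single shares, taken as fixed. They cover counting error only and leave out the spread between cells and cultures. Log2 ratios use CPM plus 1, which understates low genes, and folds are ratios of CPM. Named genes are the 10 members, Nfatc1, the cytokine list, the 2 highest and 2 lowest of each other list, and the 5 most like Cd160 and Havcr2; Cd274, Tnfrsf14, Ptpn11 and the other called transcription factors were named after their values were seen. Members and lists were chosen with earlier results of these data known. Coordinates come from GENCODE M21 (mm10). Scrublet (scanpy 1.11.5, expected rate 5%) called 6 and 5 doublets, kept except in an alternative. Scripts were tested on simulated counts. Alternatives were other scalings (edgeR 4.0.16 TMM, median-ratio factors), pseudocounts, floors, cell filters, thinning depths, UMI cutoffs and cytokine states. Python 3.11.15, NumPy 2.4.6, SciPy 1.17.1, pandas 2.3.3 and R 4.3.3 were used.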

Additional observations from a re-analysis of the deposited data

Results flagged for a closer look

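For 3 receptors the ratio between cells with Ifng and cells without went in opposite directions in the libraries, with intervals on either side of 1, and the difference between libraries was not tested. The ratio was 0.864 in the deficient-labelled library and 1.52 in the wild-type-labelled one for Cd160, 0.727 and 1.94 for Pdcd1, and 0.860 and 1.60 for Lag3. These are ratios of CPM, not corrected for the median of all genes. For Ifng that median log2 ratio was -0.20 among deficient-labelled cells. Cd160, at -0.210, and Lag3, at -0.215, lay close to it, and Pdcd1 was lower, at -0.450. Their deficient-labelled ratios thus show no clear fall beyond that of genes in general for Cd160 and Lag3. Among wild-type-labelled cells the median was -0.11, with Cd160 at 0.596, Lag3 at 0.671 and Pdcd1 at 0.915. At 5000 UMIs the shares for Cd160 went the same way in both libraries: 48.4% of Cd160-positive against 34.4% of Cd160-negative cells had at least 5 Ifng UMIs in the deficient-labelled library, and 13.5% (9.74 to 17.9) against 7.70% (5.86 to 9.91) in the wild-type-labelled library, where the intervals overlapped. Between cells with Il17a and cells without, Cd200 had ratios of 0.770 in the deficient-labelled library and 1.15 in the wild-type-labelled one, also not tested. For Il17a the median log2 ratio of all genes was 0.06 among deficient-labelled cells, against -0.04 among wild-type-labelled cells. The Ifng group of the wild-type-labelled library holds 94 cells.

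The multiplexing tags, which enter no comparison above, were led by 1 tag in every barcode of each library. Tags that lead no cell took 8.13% of the tag counts in the deficient-labelled library and 12.3% in the wild-type-labelled one.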

How the results depend on the processing

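The count of members called higher between the libraries was 3 under every scaling, pseudocount, barcode filter and doublet setting tried. It was 4 with no CPM floor, where Cd244a joined. It was 2 (Cd160 and Havcr2) with a floor of 50 CPM and in cells with at least 5 Ifng UMIs alone. Under the weighting of thinned counts to equal cytokine states it was 2 (Cd160 and Pdcd1), and this weighting was not run on all UMIs. Over 16 alternatives the log2 ratio ran from 1.70 to 2.71 for Cd160, 0.68 to 1.90 for Havcr2, 0.22 to 1.74 for Pdcd1, -0.20 to 0.68 for Lag3, -0.98 to 0.32 for Ctla4, -0.68 to -0.35 for Cd200 and -0.44 to -0.12 for Btla. The median of all genes moved to 0.11 without the 20 most abundant genes and under the weighting, and to 0.12 in cells with little Ifng, against 0.03.

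The percent of cells with at least 2 receptors depends on depth: in the deficient-labelled library it was 34.5 at 2500 UMIs, 81.8 at 10000, 89.1 without thinning and 16.1 with at least 2 UMIs per receptor, and in the wild-type-labelled library 20.1, 65.9, 81.8 and 5.98 in the same settings. It was higher in the deficient-labelled library each time. Without thinning, 10 deficient-labelled and 9 wild-type-labelled receptor pairs had intervals above 1, against 0 deficient-labelled and 1 wild-type-labelled at 5000 UMIs, and 0 and 2 at both 2500 and 10000 UMIs. The Havcr2 log2 ratio between Ifng and other cells of the wild-type-labelled library was 1.06 without cycling cells, and the cause was not tested. No paired analysis was possible because each group is 1 library and the labels give no replicate numbers.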
